A study of Arabidopsis thaliana with 4 samples.

Results

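In seedlings of Arabidopsis thaliana, 99 probe sets had their highest signal in the mock-treated wild type flask, at least 2-fold above every other flask. In each, both flasks of the transgenic line GR-REV lay within 2-fold of each other once signals below a background floor were raised to it. These 99 came from 22746 probe sets in all. The leading named genes were AT3G44140, with a signal 4.94-fold above the nearest other array, AT4G09840 (at least 3.51-fold), the glucosyltransferase gene UGT71B5 (3.12-fold), AT3G01130 (3.01-fold) and AT3G53980, of the lipid transfer protein type (2.99-fold). The sugar transporter gene SWEET10, the glutaredoxin gene GRX480 and the methionine gamma-lyase gene MGL were also among them. The members were chosen by the signals of all 4 arrays, so their levels against wild type mock are a description and have no test.

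The study measured transcripts in 4 flasks of seedlings grown in liquid culture for 10 days, with 1 Affymetrix ATH1 array per flask and 1 flask per group. GR-REV dexamethasone and GR-REV mock were Landsberg erecta (Ler) seedlings that carry the HD-ZIP III transcription factor REVOLUTA fused at its amino terminus to the glucocorticoid receptor domain, with the microRNA site in its transcript mutated, under the constitutive CaMV 35S promoter. Wild type dexamethasone and wild type mock were Ler seedlings without the construct. Dexamethasone was given for 1 h at 50 µg/ml in 0.1% ethanol, and mock flasks received 0.1% ethanol alone. Every flask pooled many seedlings, and the labels do not say whether GR-REV is 1 line or several. The 35S promoter acts in most tissues, so the fusion is not limited to the tissues where REVOLUTA is normally made. For both GR-REV arrays the source names give the treatments the other way round from the titles and treatment protocols, which are followed here. The choice of the 99 members treats these arrays alike and does not depend on it.

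In such fusions the receptor domain holds the transcription factor outside the nucleus until the hormone is added. By the rule that chose them, the members' signal was lower in the flask with the hormone but no fusion, lower in the flask with the fusion but no hormone, and lower in the flask with both. Wild type mock is the only flask that had neither.

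A signal here is a MAS5 value on a linear scale, a summary of the probes for 1 transcript, scaled by the authors to a common mean on each array. Signals below a floor of 91.4, the 40th percentile of all signals, were treated as background and have no order among themselves, so folds were taken against the floor there and are given as "at least". With 1 array per group there is no replicate error on any value and no test, and the number of arrays limits the precision. In whole seedlings, fewer cells of a type and less transcript per cell cannot be told apart.

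The wild type mock array stood apart from the other arrays as a whole, which touches every result that follows. Above the floor lay 62.9% of its probe sets, against 58.9% to 59.2% on the others, and 677 probe sets were above the floor only there, against 149 to 161 only on each of the others. Median signals were 163 in GR-REV dexamethasone, 161 in GR-REV mock and 156 in wild type dexamethasone, against 181 in wild type mock. The control probe set for 25S ribosomal RNA gave 929, 859 and 768 in the same order, against 293 in wild type mock. Ratios of 3' to 5' control probes, a sign of RNA integrity, were taken from a single pair of probe sets per gene. They were lowest on that array for actin and ubiquitin and highest on it for GAPDH. For actin they were 10.1 to 13.9 on the other arrays, against 9.33. For ubiquitin they were 1.67 to 2.25, against 1.57, and for GAPDH 1.29 to 1.60, against 1.78. Actin and ubiquitin have a further pair each, and there wild type mock did not have the lowest ratio. For actin that pair (3' and 5') read 10028 and 5144 in GR-REV dexamethasone, against 8710 and 4014 in wild type mock. For ubiquitin it read 14076 and 15738 in wild type dexamethasone, against 16926 and 16615 in wild type mock. Each array was processed in a fluidics module of its own, so module and flask cannot be told apart, and the part of these differences in the members' pattern was not tested. Of the marker genes for the labelled tissue, the root genes PYK10, a beta-glucosidase of endoplasmic reticulum bodies, and AT5G44020 were far above the floor on all arrays, with 14189.5 and 7760.2 in wild type mock. The root hair expansin gene EXPA7 and the meristem gene CLV3 were below the floor on all 4 arrays. No marker of green tissue, flower or seed was matched to a probe set, so those tissues were not checked here.

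Among the 15174 probe sets whose signal passed the floor on any array, 5.89% had a GR-REV dexamethasone signal at least 2-fold below that of wild type mock; this was 4.43% on the GR-REV mock array and 2.51% on that of wild type dexamethasone. On all 3 arrays at once it was 0.718%, or 109 probe sets, and with the limit on the GR-REV pair 0.659%. At 3-fold it was 0.0659%. Only 16 probe sets, or 0.105%, were at least 2-fold higher on all 3 arrays than in wild type mock. Because the rule used these contrasts, the shares give the setting and nothing is read from them about the members. The direction depends on the scaling. In wild type dexamethasone 381 probe sets were at least 2-fold lower and 126 higher as deposited, 249 and 212 after quantile normalization, and 176 and 310 with each array divided by its median. For GR-REV dexamethasone these numbers were 894 and 680, 785 and 781, and 641 and 924, and for GR-REV mock 672 and 536, 558 and 636, and 428 and 786. Division by the median set the median difference of all probe sets from wild type mock at 0.07 on the log2 scale for each of the GR-REV arrays and 0.10 for wild type dexamethasone, against -0.03 (GR-REV dexamethasone), -0.05 (GR-REV mock) and -0.06 as deposited.

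Of the 109 probe sets, 9 were left out because the GR-REV arrays differed by more than 2-fold, and 1 because its gene, AT3G17110, lies in the stretch of chromosome 3 that the rule leaves out. Among the 9 was the jacalin-type lectin gene AT1G52000, with 125 in GR-REV dexamethasone, 503 in GR-REV mock and 840.2 in wild type dexamethasone, against 2740.3 in wild type mock. Of the 99 members, 53 have 1 gene listed, 4 have several and 42 have none listed and are unnamed here. The share with 1 gene, 53.5%, is close to the 54.6% of all probe sets above the floor on any array. Of the 53, 50 are annotated as protein-coding and 3 (AT1G35280, AT5G32510 and AT5G38870) as pseudogenes. Of the 99, 8 are probe sets whose design may read more than 1 transcript.

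The margin over the nearest other array had a median of 2.20-fold and reached 5.48-fold, and 90 of the 99 members lay under 3-fold. The member with 5.48-fold has no gene listed; its signals were 47.7 in GR-REV dexamethasone, 35.8 in GR-REV mock and 124 in wild type dexamethasone, against 679 in wild type mock. The members were mostly of low to middle level. Their signal in wild type mock was between 183 and 10600.3, with a median of 311, against 420.4 for all probe sets above the floor there. The rule keeps every member at least 2-fold above the floor, while that wider set starts at the floor. Between 200 and 500 lay 58 members, or 1.25% of the 4635 probe sets at that level, while the 12 at or above 1000 were 0.349% of 3440. On all 4 arrays 42 members were above the floor, and 22 were above it only in wild type mock, so that their margin is a lower bound. The plot of margin against level shows these bounds as a rising edge on the left.

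**Figure D1:**
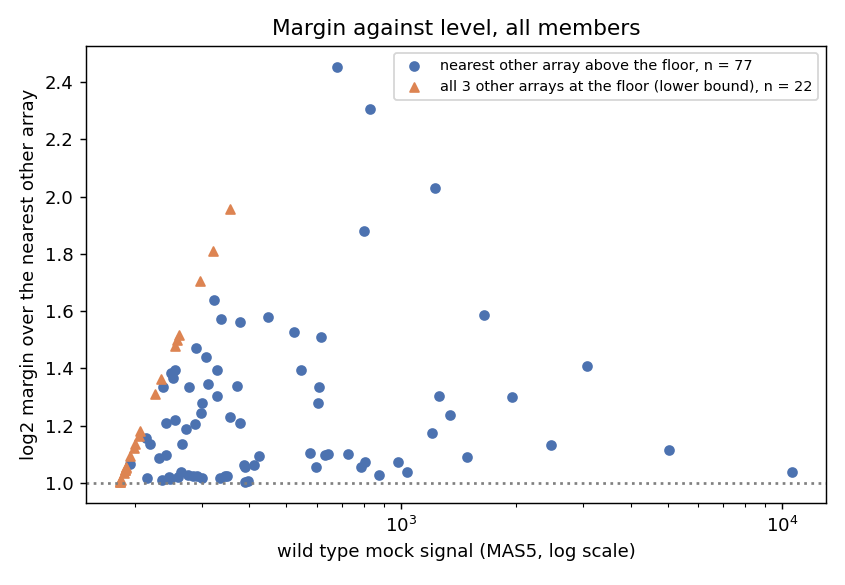
Each point is 1 of the 99 members, with the wild type mock signal on the x axis (MAS5 units, log scale) and the log2 margin over the nearest of the other 3 arrays on the y axis; the dotted line is the rule's limit of 1. The 22 members with all other arrays at the floor (triangles) lie on a rising edge because their margin is set by the floor.

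AT3G44140 had the largest margin of the named genes. Its signals were 118 in GR-REV dexamethasone, 131 in GR-REV mock and 168 in wild type dexamethasone, against 829 in wild type mock. All 3 lower arrays lay close together, just above the floor. AT3G01130 was the brightest of the leading genes, with 424 and 407 on the GR-REV dexamethasone and mock arrays and 550.4 in wild type dexamethasone, against 1655 in wild type mock. It was 3.90-fold below wild type mock in GR-REV dexamethasone, 4.07-fold in GR-REV mock and 3.01-fold in wild type dexamethasone. AT4G09840 was above the floor only in wild type mock, with 62.5 in GR-REV dexamethasone, 46.9 in GR-REV mock and 40.5 in wild type dexamethasone, against 320.4 in wild type mock. AT2G10020, AT1G35280, AT3G20340, AT1G21540 and AT1G51270 had the same on and off pattern, with wild type mock signals of 261, 258, 255, 235 and 227 and no signal above the floor elsewhere. Their margins are bounds of 2.48 to 2.86-fold. In AT2G10020 the other arrays read 9.81, 4.58 and 3.26, whereas in AT3G20340 they read 90.4, 83.0 and 89.0, just under the floor. Among the genes of this level without a described role, AT3G26800 had 64.3 and 51.9 on the GR-REV dexamethasone and mock arrays and 97.5 in wild type dexamethasone, against 251 in wild type mock, and AT3G50250 had 50.0 and 93.7 on the GR-REV dexamethasone and mock arrays and 51.3 in wild type dexamethasone, against 237 in wild type mock. The probe set for AT3G50250 may also read related transcripts (suffix x). AT4G35720 had 63.6 in GR-REV dexamethasone, 70.0 in GR-REV mock and 110.1 in wild type dexamethasone, against 278 in wild type mock. In these 3 genes the GR-REV arrays were below the floor or just above it.

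**Figure D2:**
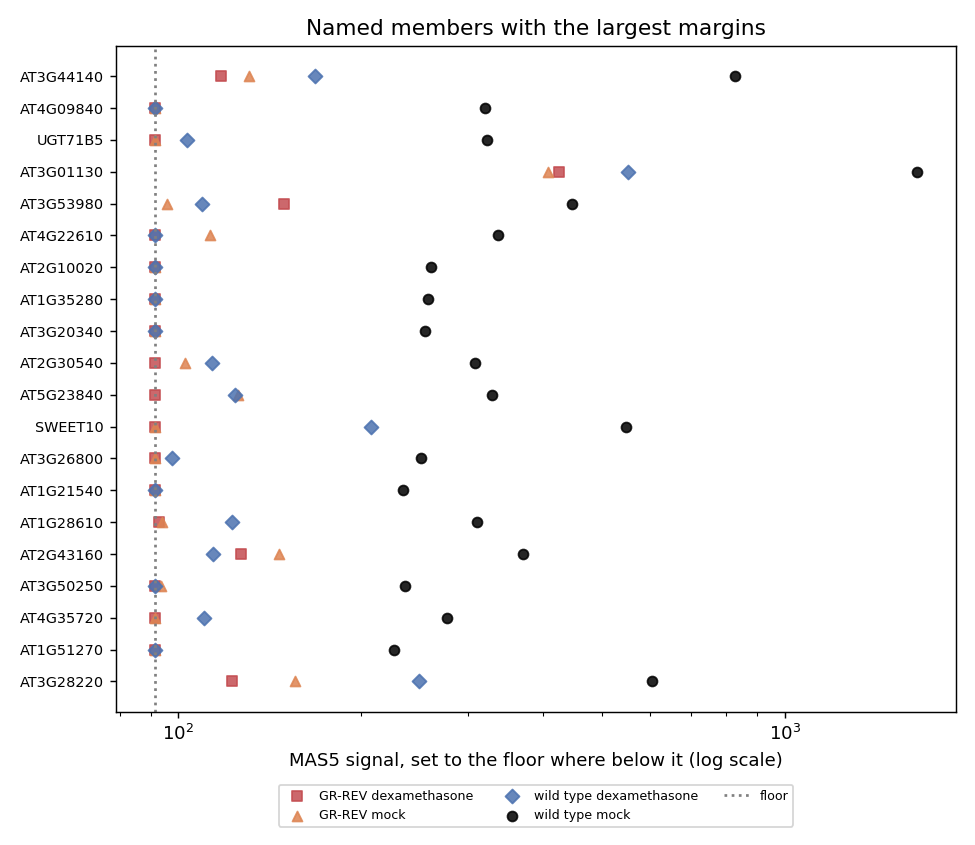
The 20 named members with the largest margins are listed down the y axis in order of margin, with the MAS5 signal of each of the 4 arrays on the x axis (log scale, signals under the floor drawn at the floor, dotted line). The wild type mock point (black circle) stands alone to the right in every row, and in 6 rows the other 3 arrays all lie at the floor.

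The members with a described role were grouped by it after their values had been seen, so the groups order the description and support nothing. Secreted and lipid-handling proteins were 4, with margins of 2.54 to 2.99-fold. Proteins of the lipid transfer type are small, cysteine-rich and secreted, and bind lipids at the cell surface. AT3G53980 is of this type and had 149 in GR-REV dexamethasone, 95.6 in GR-REV mock and 109.5 in wild type dexamethasone, against 446 in wild type mock. AT4G22610, of the same superfamily, had 29.3 and 113 on the GR-REV dexamethasone and mock arrays and 83.9 in wild type dexamethasone, against 336 in wild type mock. Its highest other array was GR-REV mock, while for AT3G53980 it was GR-REV dexamethasone. AT5G23840, with an MD-2-related lipid-recognition domain, had 6.08 in GR-REV dexamethasone, 125 in GR-REV mock and 124 in wild type dexamethasone, against 329 in wild type mock, and its GR-REV dexamethasone signal was far under the floor. The GDSL-type lipase gene AT1G28610 had 92.8 in GR-REV dexamethasone, 94.0 in GR-REV mock and 122 in wild type dexamethasone, against 311 in wild type mock, with both GR-REV arrays barely above the floor.

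Redox genes were represented by 2 glutaredoxins. Glutaredoxins reduce disulfides with glutathione, and those of the plant-specific CC type act with TGA transcription factors. GRX480 (also ROXY19) is a CC-type glutaredoxin that is induced by salicylic acid and dampens jasmonate-responsive defensin genes. Its signals were 219.7 in GR-REV dexamethasone, 118 in GR-REV mock and 430.1 in wild type dexamethasone, against 877 in wild type mock. Relative to wild type mock it was 3.99-fold lower in GR-REV dexamethasone, 7.45-fold in GR-REV mock and 2.04-fold in wild type dexamethasone, so its margin is near the smallest allowed although its span is among the widest. AT2G30540, the other glutaredoxin, had 56.6 in GR-REV dexamethasone, 103 in GR-REV mock and 114 in wild type dexamethasone, against 309 in wild type mock. Of the other 4 glutaredoxin probe sets with 1 gene that carry such a name in the tables used, ROXY1 and ROXY2 were below the floor on all arrays. GRXC1 was higher in the other arrays than in wild type mock, with 808 in GR-REV dexamethasone, 1142 in GR-REV mock and 504 in wild type dexamethasone, against 356 in wild type mock. GRXC2 had 4999 and 7189 on the GR-REV dexamethasone and mock arrays and 6605 in wild type dexamethasone, against 6845 in wild type mock. Neither GRXC1 nor GRXC2 was highest in wild type mock.

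Among transporters, SWEET10 had 20.9 in GR-REV dexamethasone, 62.3 in GR-REV mock and 208 in wild type dexamethasone, against 547 in wild type mock. SWEET proteins are membrane uniporters that let sugars move along their gradient, and SWEET10 moves sucrose. It was below the floor in both GR-REV flasks, at least 5.98-fold lower than wild type mock in each, and in between in wild type dexamethasone, 2.63-fold lower. Of 14 SWEET probe sets, 8 were above the floor on some array and 5 of these were highest in wild type mock. SWEET10 alone had the 2-fold margin over every other array. SWEET3 and SWEET13 were among the 5 but only just above the floor, with 94.9 and 98.3 in wild type mock. SWEET17, SWEET2 and SWEET16 were highest in a GR-REV array. SWEET16 (AT3G16690) lies in the stretch of chromosome 3 that the rule leaves out. No share over all probe sets is set beside the 5 of 8, so nothing is read from it about the family. The bright SWEET11 had 4476 in GR-REV dexamethasone, 4682 in GR-REV mock and 4709.7 in wild type dexamethasone, against 6115 in wild type mock. AT3G53960, of the nitrate and peptide transporter family, had 62.9 in GR-REV dexamethasone, 101 in GR-REV mock and 300.3 in wild type dexamethasone, against 644 in wild type mock, an order of arrays like that of SWEET10. AT1G26130, a P4-type ATPase that flips phospholipids, was close to the threshold, with 127 and 139.8 on the GR-REV dexamethasone and mock arrays and 138 in wild type dexamethasone, against 284 in wild type mock.

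Metabolic enzymes were 5, with margins of 2.02 to 3.12-fold. UGT71B5, which transfers glucose from UDP-glucose to small molecules, had 51.6 in GR-REV dexamethasone, 34.7 in GR-REV mock and 103 in wild type dexamethasone, against 322 in wild type mock. Of 9 UGT71 probe sets, 5 were above the floor on some array, and UGT71B5 was the 1 of them highest in wild type mock. This count too has no share over all probe sets beside it, and nothing is read from it about the family. UGT71B1 had 655 in GR-REV dexamethasone, 801 in GR-REV mock and 327 in wild type dexamethasone, against 561 in wild type mock. MGL, which breaks methionine down to a thiol and an oxo acid, had 181 in GR-REV dexamethasone, 94.5 in GR-REV mock and 268 in wild type dexamethasone, against 575 in wild type mock. It was lowest in GR-REV mock, 6.09-fold lower than wild type mock, against 2.15-fold in wild type dexamethasone. AT5G38710, a proline dehydrogenase of proline breakdown, had 67.4 in GR-REV dexamethasone, 98.3 in GR-REV mock and 165 in wild type dexamethasone, against 334 in wild type mock, a small margin set by wild type dexamethasone. AT3G25400, a dCTP pyrophosphatase that cleans the nucleotide pool, had 73.5 and 125 on the GR-REV dexamethasone and mock arrays and 113 in wild type dexamethasone, against 288 in wild type mock. AT1G23440, a pyroglutamyl peptidase family gene, was at 459 in GR-REV dexamethasone, 532 in GR-REV mock and 568 in wild type dexamethasone, against 1340.2 in wild type mock. The nearest array to wild type mock was GR-REV mock for AT3G25400 and wild type dexamethasone for the other enzymes.

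Protein turnover and signalling included 2 genes of the SINA-like type, RING proteins that mark others with ubiquitin. AT5G37930 had 271 and 296 on the GR-REV dexamethasone and mock arrays and 253 in wild type dexamethasone, against 633 in wild type mock, with the other arrays within a narrow band. AT5G53360 had 174 in GR-REV dexamethasone, 196 in GR-REV mock and 288 in wild type dexamethasone, against 599 in wild type mock. The TRAF-like gene AT3G28220 was lowest in GR-REV dexamethasone, with 123 in GR-REV dexamethasone, 155 in GR-REV mock and 249 in wild type dexamethasone, against 605 in wild type mock. The F-box gene AT5G18780 and the aspartyl protease family gene AT5G19100 had margins of 2.08-fold and at least 2.18-fold. AT3G22104, of the NPH3 family of phototropic signalling, had 352 in GR-REV dexamethasone, 372 in GR-REV mock and 377 in wild type dexamethasone, against 783 in wild type mock, with all other arrays nearly equal.

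Defence-related members were 4, with margins of 2.02 to 2.37-fold. AT2G43535, a defensin-like gene of a small secreted peptide, was the brightest, with 559 in GR-REV dexamethasone, 694 in GR-REV mock and 699 in wild type dexamethasone, against 1488 in wild type mock. The jacalin-type lectin gene AT5G35940 had 42.9 in GR-REV dexamethasone, 65.3 in GR-REV mock and 126 in wild type dexamethasone, against 299 in wild type mock, and both GR-REV arrays were below the floor. AT1G14780, with a membrane attack complex/perforin domain found in plant regulators of cell death, had 207 and 339 on the GR-REV dexamethasone and mock arrays and 326 in wild type dexamethasone, against 727 in wild type mock. AT4G16920, which encodes an immune receptor of the TIR-NBS-LRR type, was above the floor only in the wild type flasks, with 123 in dexamethasone and 248 in mock.

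Of membrane and trafficking genes, TET5 encodes a tetraspanin, a protein that spans the membrane several times and organises patches of the plasma membrane. TET5 had 83.2 in GR-REV dexamethasone, 55.4 in GR-REV mock and 75.6 in wild type dexamethasone, against 205 in wild type mock, so it was above the floor in wild type mock alone. Of 15 TET probe sets 8 were above the floor on some array and 3 of these were highest in wild type mock. As no share over all probe sets is set beside the 3 of 8, nothing is read from it about the family. TET9 had 58.7 in GR-REV dexamethasone, 76.0 in GR-REV mock and 162 in wild type dexamethasone, against 259 in wild type mock. It was short of 2-fold against wild type dexamethasone. AT2G43160, an epsin-type adaptor of clathrin-coated vesicles, had 127 in GR-REV dexamethasone, 146 in GR-REV mock and 114 in wild type dexamethasone, against 370.3 in wild type mock. The TBC-domain gene AT5G41940, of the type that switches off Rab GTPases, was just inside the rule, with 163 in GR-REV dexamethasone, 198 in GR-REV mock and 175 in wild type dexamethasone, against 397 in wild type mock.

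The brightest member was AT4G39200, which encodes ribosomal protein S25 of the small subunit. It had 5156 in GR-REV dexamethasone, 4423 in GR-REV mock and 5128 in wild type dexamethasone, against 10600.3 in wild type mock, with all other arrays within a narrow range. AT1G15940, of the PDS5 family that regulates cohesin on chromosomes, had 103 and 119.8 on the GR-REV dexamethasone and mock arrays and 121 in wild type dexamethasone, against 246 in wild type mock. AT1G68730, with a Zim17-type zinc finger known from mitochondrial import in yeast, was above the floor in wild type mock alone, with 189. For 23 of the 53 named members no role is given here; their margins ran from 2.00 to 4.94-fold. Of these 23, 10 were above the floor in wild type mock alone, against 3 of the 30 with a role, and 7 were above it on all 4 arrays, against 17 of the 30. AT1G11210 was the second brightest of the 23, with 252 in GR-REV dexamethasone, 467 in GR-REV mock and 322 in wild type dexamethasone, against 983 in wild type mock. GR-REV mock was its nearest array and GR-REV dexamethasone its lowest. AT5G65300 had 117 in GR-REV dexamethasone, 144 in GR-REV mock and 163 in wild type dexamethasone, against 377 in wild type mock, and AT1G27430 had 127 in GR-REV dexamethasone, 189 in GR-REV mock and 198 in wild type dexamethasone, against 423 in wild type mock. In both genes GR-REV dexamethasone was lowest and wild type dexamethasone nearest to wild type mock. AT5G35480 had 98.4 in GR-REV dexamethasone, 152 in GR-REV mock and 141 in wild type dexamethasone, against 356 in wild type mock, with GR-REV mock nearest.

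The 42 members with no gene listed had wild type mock signals of 183 to 5051, with a median of 282, and margins of 2.00 to 5.48-fold, with a median of 2.21-fold. They held 8 of the 12 members at or above 1000. The brightest of them had 1398 in GR-REV dexamethasone, 2046 in GR-REV mock and 2329 in wild type dexamethasone, against 5051 in wild type mock. Another had 225 in GR-REV dexamethasone, 298 in GR-REV mock and 300.3 in wild type dexamethasone, against 1228 in wild type mock, a margin of 4.09-fold that was the widest among the members at that level. All lower arrays of that member lay close together. The 4 members with several genes listed had wild type mock signals of 276 to 390.3 and margins of 2.01 to 2.47-fold.

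Around the threshold of 2-fold the values were nearly continuous. The last named members inside were AT1G15840 at 2.008-fold, AT5G41940 at 2.007-fold and AT5G38870 at 2.002-fold; AT1G15840 and AT5G38870 were above the floor in wild type mock alone, with 183 each, so theirs are bounds. A member with several genes listed lay between them at 2.006-fold, and the smallest margin of all, also a bound, was that of a member with no gene listed. Of the named genes, just outside lay AT5G10580 at 1.997-fold, AT1G12630 at 1.989-fold, also a bound, and AT1G80130 at 1.982-fold. AT1G80130, with tetratricopeptide repeats, had 303 in GR-REV dexamethasone, 381 in GR-REV mock and 228 in wild type dexamethasone, against 756 in wild type mock, a brighter signal in wild type mock than that of the last 3 named members inside.

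For 3 members a second probe set names the same gene, a measure that the rule did not use. For AT1G51270 it had 79.1 in GR-REV dexamethasone, 85.7 in GR-REV mock and 97.8 in wild type dexamethasone, against 188 in wild type mock, again highest in wild type mock and near or below the floor elsewhere. For AT2G43160 it was bright and nearly level, with 1468 in GR-REV dexamethasone, 1440.3 in GR-REV mock and 1383 in wild type dexamethasone, against 1503 in wild type mock, or -0.12 on the log2 scale in wild type dexamethasone over mock. For AT1G23440 it had 419 in GR-REV dexamethasone, 509.8 in GR-REV mock and 99.3 in wild type dexamethasone, against 243 in wild type mock, and the groups are not in the order of the member. Its log2 difference was -1.29 for wild type dexamethasone minus mock, while GR-REV dexamethasone and GR-REV mock were higher than wild type mock by 0.78 and 1.07.

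The rule left the order of the lower arrays free, apart from the limit on the GR-REV pair and the ceiling 2-fold under wild type mock. Among the 42 members above the floor on all arrays, GR-REV dexamethasone was the lowest array in 29, GR-REV mock in 7 and wild type dexamethasone in 6. GR-REV dexamethasone was below wild type dexamethasone in 33 of the 42, with a median log2 difference of -0.39, and GR-REV mock was below it in 28, with a median of -0.14. Over the 12252 probe sets that passed the floor on every array these medians were 0.02 and 0.00, and 48.1% and 49.6% lay below 0. GR-REV dexamethasone was below GR-REV mock in 34 of the 42, with a median of -0.22, against 48.6% and 0.01 over all; with the treatments of the source names this difference has the other sign. The members were picked for low signals on these arrays and share the arrays, so the counts are a description. The 12252 probe sets were not picked in this way, and the counts of the lowest array have no share over all beside them. At least 2-fold below wild type mock lay 5.89% of the 15174 probe sets in GR-REV dexamethasone. In wild type dexamethasone it was 2.51%. Nothing is read from the order of the lower arrays. In 77 of the 99 members the array nearest to wild type mock was above the floor. It was GR-REV dexamethasone in 6, GR-REV mock in 22 and wild type dexamethasone in 49. In the other 22 all lower arrays were at the floor and have no order. These counts have no share over all probe sets beside them, so nothing is read from them.

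Between the genotypes with the hormone, 7 of the 99 members had a GR-REV dexamethasone signal at least 2-fold below that of wild type dexamethasone and 0 had one 2-fold above it, against 3.10% and 4.77% of all probe sets. In GR-REV mock against wild type dexamethasone 5 were lower and 0 higher, against 3.08% and 5.03%. Both lists are small. The named ones were AT3G53960, SWEET10 and AT3G28220 in GR-REV dexamethasone, and GRX480, AT3G53960, MGL and SWEET10 in GR-REV mock. GRX480 was 3.65-fold lower in GR-REV mock than in wild type dexamethasone and AT3G53960 2.97-fold. In these genes wild type dexamethasone lay between wild type mock and GR-REV. The rule and the 2-fold limit fix that place for the GR-REV array of each list, so nothing is read from it.

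**Figure D3:**
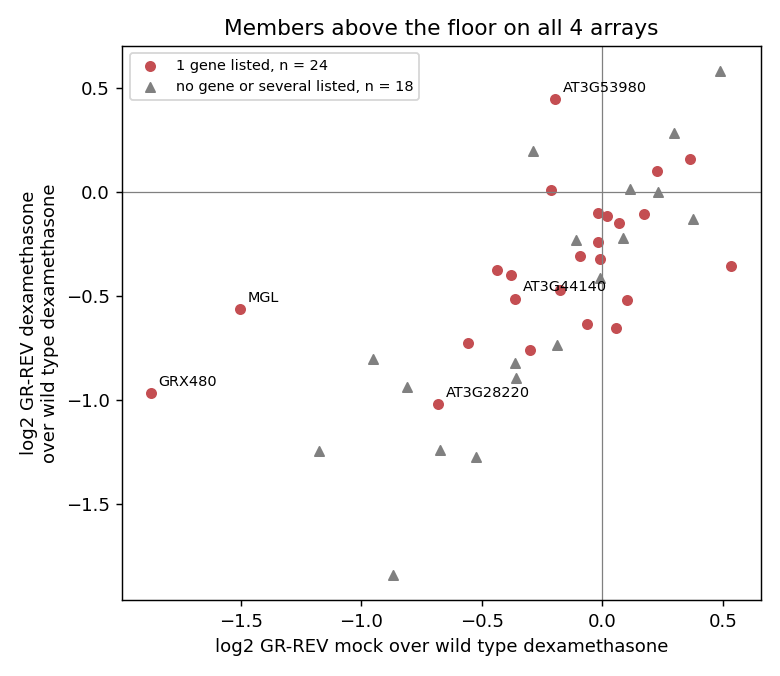
For the 42 members above the floor on all 4 arrays, the log2 ratio of GR-REV mock over wild type dexamethasone is on the x axis and that of GR-REV dexamethasone over wild type dexamethasone on the y axis, with 24 members that have 1 gene as circles and 18 others as triangles. Most points lie in the lower left part; GRX480 and MGL lie far to the left, where GR-REV mock lies below GR-REV dexamethasone.

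Member genes were spread over all 5 nuclear chromosomes, 15 of the 53 on chromosome 1, 4 on 2, 12 on 3, 8 on 4 and 14 on 5. On chromosome 2 that is 7.55%, against 14.4% of all named probe sets above the floor, and on chromosome 5 26.4% against 23.6%; no member came from the plastid genome. In the RefSeq gene order, 3 pairs of members lay within 25 genes of each other: AT3G53960 and AT3G53980 with 3 steps between them, AT1G15840 and AT1G15940 with 11, and GRX480 and AT1G28610 with 14. AT5G19110, next in number to the member AT5G19100 and also of the aspartyl protease type, was 2-fold above each other array too but was left out by the GR-REV limit, with 8.53 in GR-REV dexamethasone, 219.6 in GR-REV mock and 182 in wild type dexamethasone, against 456 in wild type mock.

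Gene lists for hormone, stress and nutrient responses were set beside the members. Of the 13 lists, 4 (jasmonate, salicylic acid, phosphate and nitrate) had no gene matched to a probe set, and no list gene was a member. Of 21 touch and rapid stress genes 7 were matched. Of these, 4 had a GR-REV dexamethasone signal at least 2-fold below wild type mock, 2 a GR-REV mock signal and 1 a wild type dexamethasone signal. Over all probe sets above the floor somewhere the shares were 5.89%, 4.43% and 2.51%. The median log2 differences of the 7 genes were -1.32, -0.87 and -0.35. With the floor at the 60th percentile these were -0.53, -0.53 and -0.14. Over all probe sets above the floor somewhere these medians were -0.03, -0.05 and -0.06. AT1G80130, described above, was the nearest to a member. The calmodulin-like gene CML38 had 119 in GR-REV dexamethasone, 119 in GR-REV mock and 318 in wild type dexamethasone, against 405 in wild type mock, so only the GR-REV flasks were lower by 2-fold. The ubiquitin ligase gene PUB22 had 101 in GR-REV dexamethasone, 241 in GR-REV mock and 218 in wild type dexamethasone, against 302 in wild type mock. PUB23, its close relative, had 93.0 in GR-REV dexamethasone, 174 in GR-REV mock and 234 in wild type dexamethasone, against 395 in wild type mock, and both genes were lowest in GR-REV dexamethasone. The zinc finger gene STZ was higher in wild type dexamethasone than in wild type mock, 1255 against 1103. CML23 was nearly level between GR-REV mock and wild type mock, 113 against 111. CML37 passed the floor only in wild type dexamethasone, with 92.2. Of the other lists, 1 to 3 probe sets each were above the floor. They did not run one way. The gibberellin-list gene XERICO was highest in GR-REV dexamethasone, with 726 against 646 in wild type mock. COR47, of the abscisic acid list, was lowest in wild type mock, with 3923 against 4368 in wild type dexamethasone. RR16 and GH3.3 were highest in GR-REV mock, with 366 and 728 against 218 and 725 in wild type mock. IAA29 passed the floor only in wild type dexamethasone. EIN3, WES1 and MCCA were highest in wild type mock by less than 2-fold. So were the gibberellin receptor genes GID1C and GID1A and the clock gene GI. GI had 531 in GR-REV dexamethasone, 365 in GR-REV mock and 352 in wild type dexamethasone, against 607 in wild type mock. The guard cell genes FMA and AT1G04800 were likewise highest there by less than 2-fold, with 1641 and 1454 on the GR-REV dexamethasone and mock arrays and 1551 in wild type dexamethasone, against 2268 in wild type mock for AT1G04800. Of 9 heat shock genes 2 were matched. AT2G29500, a small heat shock protein gene, was higher in GR-REV, with 685 in GR-REV dexamethasone, 477 in GR-REV mock and 173 in wild type dexamethasone, against 114 in wild type mock. AT5G48570, the other, had 373 in GR-REV dexamethasone, 154 in GR-REV mock and 203 in wild type dexamethasone, against 204 in wild type mock, so GR-REV dexamethasone was above wild type mock and GR-REV mock below it.

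How many members there are depends on the floor and on the scaling. After quantile normalization 63 probe sets met the rule, of which 59 were among the 99. With each array divided by its median 45 met it, all of them among the 99. With the floor at the 60th percentile 30 met it and with the floor at the 25th 355, which held 27 and 88 of the 99. Across the 7 other settings 12 members met the rule every time, 4 of them named: AT3G44140, AT3G01130, AT3G28220 and AT1G23440, the last with a second probe set that ran otherwise. The 7 include the treatments of the source names, which could not change the members, because the rule treats the GR-REV arrays alike. UGT71B5, SWEET10 and AT3G53980 met it in all settings but the floor at the 60th percentile. GRX480, MGL and AT4G39200 fell short of 2-fold with each array divided by its median, at log2 margins of 0.82, 0.89 and 0.84.

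**Figure D4:**
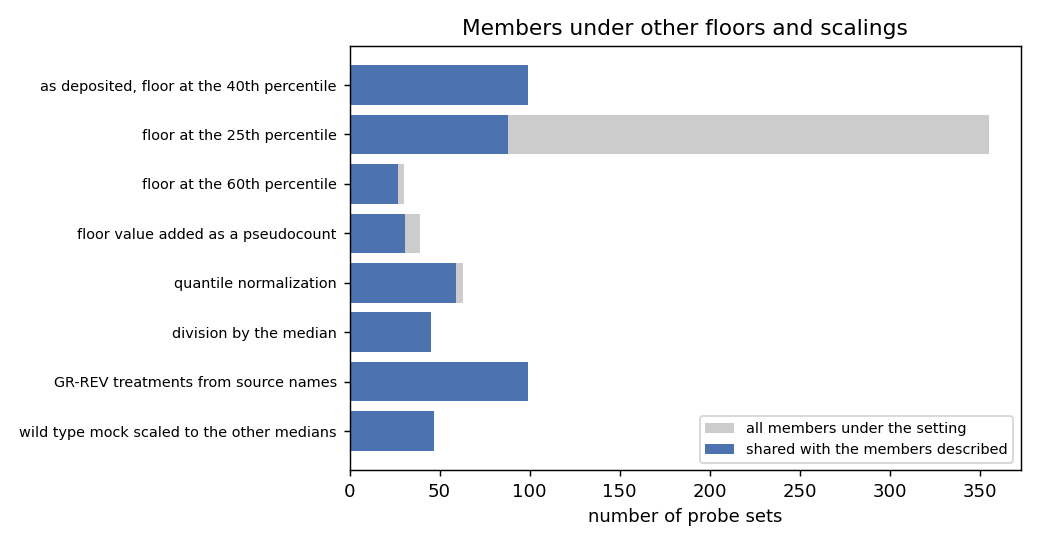
Bars give the number of probe sets that met the rule under each setting (x axis), with the rule as used at the top; the dark part is shared with the 99 members described. The count is 355 with the lowest floor and 30 with the highest, and 45 to 63 under the other scalings.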

How the data were processed

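Signal intensities of 4 Affymetrix ATH1 arrays, 1 per flask and group, were used as deposited by the authors, as linear values made with MAS5 per the submitters' processing notes (version: not given in the sources used here). No further scaling was applied, because all arrays already had a 2% trimmed mean of 500.05 to 500.06. Groups follow the titles. After removing 64 controls from 22810 probe sets, signals under the 40th percentile, 91.4, were raised to it and log2 was taken. Members had wild type mock at least 1 log2 unit above each other array and a GR-REV difference within 1; WRKY53, GID1B and AT3G16330 to AT3G19590 were left out by rule. No test was run, since there is 1 array per group and the rule used every array. The rule was tested on simulated data with normal noise of a chosen size and changes added only to probe sets well above the floor. Many members lie nearer the floor, so this checks the code and not the members. Values on each array are given for the 20 named members with the largest margins, members with a gene symbol, those at the threshold and genes of the lists; others were named after their values were seen. Names came from the platform annotation, updated through the RefSeq table of assembly TAIR10.1, which all 53 named members matched. Of 22746 probe sets, 13513 had 1 gene listed, 503 several and 8730 none. Sequences were not used here, so promoter motifs were not searched. Members and lists were chosen with earlier results of these data known. Other floors, a pseudocount, other scalings, other margins and the treatments of the source names were tried. Python 3.11.15, numpy 2.4.6 and pandas 2.3.3 were used.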

Additional observations from a re-analysis of the deposited data

Results flagged for a closer look

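For 4 members with 1 gene, dexamethasone went with a higher signal in GR-REV, by at least 0.5 on the log2 scale, and with a lower one in wild type: MGL by 0.94, AT3G28590 by at least 0.91 (GR-REV mock was below the floor), GRX480 by 0.90 and AT3G53980 by 0.64 in GR-REV. In wild type the log2 differences of dexamethasone minus mock were -1.10, -1.21, -1.03 and -2.03 for the same genes, a direction that the choice of members fixes. AT3G28590 had 171 in GR-REV dexamethasone, 34.8 in GR-REV mock and 151 in wild type dexamethasone, against 349 in wild type mock. The difference between the genotypes was not tested, as each group has 1 array, and with the treatments of the source names all 4 genes had the same sign in both genotypes.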

How the results depend on the processing

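No paired analysis was possible because each group has 1 array. The 99 members became 355 with the floor at the 25th percentile, 30 with it at the 60th, 39 with the floor value added as a pseudocount, 63 after quantile normalization, 45 with division by the median and 47 with wild type mock scaled to the mean of the other medians, a setting chosen after seeing the data. They were 42 when the signal had to be above the floor on all 4 arrays, 639 with a 1.5-fold and 9 with a 3-fold margin. Of the 53 named members, 48, 14, 14, 34, 25 and 27 stayed members under the first 6 settings. The 9 members at 3-fold became 36, 4 and 4 with the 2 other floors and the pseudocount. Probe sets at least 2-fold lower than wild type mock numbered 1803, 1546 and 1123 in GR-REV dexamethasone, GR-REV mock and wild type dexamethasone with the floor at the 25th percentile, 402, 287 and 109 at the 60th, and 590, 401 and 151 with the pseudocount. In GR-REV mock and wild type dexamethasone they were 428 and 176 with division by the median and 416 and 190 with wild type mock scaled, and in wild type dexamethasone 249 after quantile normalization. Why the counts moved was not tested beyond these settings. The treatments of the source names left the same 99 members. With the floor at the 60th percentile 61 of the 99 kept a margin above 0, and under each other setting all 99 did. A lower floor, a pseudocount or swapped GR-REV labels cannot reverse the order of signals, so there the outcome was fixed. The other scalings had a log2 margin of at least 1 to overcome, so nothing is read from it. Low signals limit the result: 22 members have only a bound, and 1 array per group gives no replicate check.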
